A study of Sus scrofa with 32 samples.

Results

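The matrix metalloproteinases (MMP), the ADAMTS proteases, 4 ADAM sheddases and the inhibitors of these enzymes were followed in the pig endometrium on Day 14 as 40 genes of the 30185 that were counted. They comprised 14 MMP genes, 17 ADAMTS genes, 4 ADAM genes and 5 inhibitor genes (TIMP1 to TIMP4 and RECK), chosen by gene symbol, and each symbol matched a single NCBI gene ID. Of the 40 genes, 34 passed the authors' filter on low values in at least 1 of the 4 endometrial compartments, 23 passed it in all 4 compartments and 6 passed it in none.

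MMPs are zinc-dependent enzymes, secreted or bound to the membrane, that cleave collagens, basement membrane proteins and other matrix components. ADAMTS enzymes are secreted, and their members cleave proteoglycans such as versican and aggrecan, trim procollagens or act on the microfibrils of the matrix. ADAM proteases are membrane proteins that release growth factors, cytokines and receptors from the cell surface. The TIMPs bind the active site of these enzymes, and RECK is a membrane-anchored MMP inhibitor. In the pig the conceptus attaches to an intact uterine epithelium and does not invade the stroma, and endometrial metalloproteinases are known for matrix turnover during the cycle and early pregnancy.

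Stroma (S), blood vessels (BV), glandular epithelium (GE) and luminal epithelium (LE) had been cut by laser capture microdissection from frozen, cresyl violet-stained endometrium of 8 gilts, which are young female pigs. All gilts were prepuberal and were brought to ovulation with eCG and hCG. The 4 pregnant gilts had been inseminated with German Landrace semen and were sampled at the hyperemic zones, where embryos attach, after the conceptuses were taken off. The 4 cyclic (nonpregnant) gilts had received semen supernatant of the same boar. All 4 compartments came from the same animals. Gilts are named by the number in their library labels, except that the cyclic gilt of the libraries CL128, CG128, CB128 and CS128 and the pregnant gilt of PL139, PG139, PB139 and PS139 are named by those labels. The GE library of pregnant gilt 41 was not analysed here, which left 31 libraries and 3 pregnant gilts for GE.

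Library totals ranged from 2415216 to 7081556 counts. The summed CPM (counts scaled to a common library size with TMM factors) of 6 epithelial marker genes was 1467 to 3122 in LE and GE, 2.43 to 261 in BV and 10.1 to 423 in S. Fibroblast markers summed to 35845 to 105005 in S and 24059 to 86701 in BV, but also to 4317 to 16705 in LE and 3163 to 7990 in GE. Endothelial markers summed to 1381 to 2761 in BV and, overlapping with it, to 483 to 2584 in S. Smooth muscle markers summed to 1027 to 17393 in BV and to 418 to 1179 in S, also with overlap. Their mean sum in BV was 9265 in cyclic and 2830 in pregnant gilts. The cyclic GE library CG128 differed most from its group, by 3.46 on the log2 scale over the 500 genes that differed most, against 2.52 to 2.68 for the other 3 cyclic GE libraries. A lower level in these bulk captures cannot tell fewer cells of a type from less RNA per cell.

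More of the 34 genes had their highest mean level in S or BV than in an epithelium. The mean level, given as CPM per kb of exon so that genes can be compared, was highest in S for 16 genes, in BV for 9, in LE for 5 and in GE for 4. Of all 13887 genes tested, 22.2% were highest in S, 20.4% in BV, 27.8% in LE and 29.6% in GE. In 11 of these 34 the highest compartment also passed the test against the next one (5 in S, 3 in BV, 2 in GE and 1 in LE), as it did in 2.20% of all genes for S, 2.53% for BV, 11.0% for GE and 8.13% for LE. The test was edgeR's quasi-likelihood test with the gilt as a block at a false discovery rate of 1%. Against GE, 24 members were higher in S (31.4% of all 13887 genes tested were) and 4 were lower (27.9%), and 25 were higher in BV (29.9%) and 4 lower (28.4%). Against LE, 20 members were higher in S (23.9% of all genes) and 3 lower (26.7%), and 21 were higher in BV (23.4%) and 1 lower (25.8%). Between both epithelia, 18 members were higher in LE (25.9%) and 3 were higher in GE (15.5%). BV and S differed in few genes: 3 members were higher in BV (3.81%) and 5 were higher in S (3.38%). The median difference of the 34 members on the log2 scale was -2.49 for GE minus S and -1.38 for LE minus S, beside -0.03 and 0.04 over all genes.

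**Figure D1:**
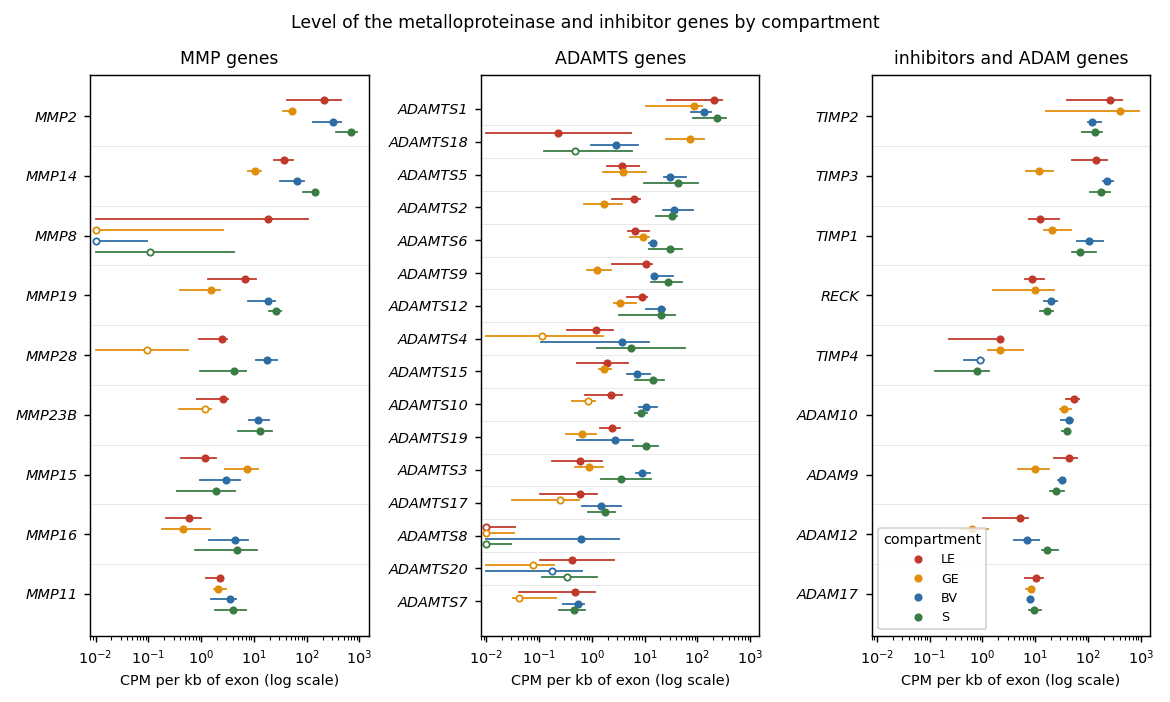
Level of the 34 genes that passed the filter in at least 1 compartment, in CPM per kb of exon on a log axis. Points are medians and lines run from the lowest to the highest library (n = 8, GE n = 7), open points mark compartments where the gene did not pass the filter, and values under 0.01 are drawn at 0.01; MMP2, MMP14 and most ADAMTS genes sit farthest right in S or BV, ADAMTS18, MMP15 and TIMP2 in GE, and MMP8 in LE.

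MMP2, the gelatinase that cleaves type IV collagen and denatured collagen, had the highest level of all 40 genes in S at 641 ± 201 CPM per kb (SD, n = 8). Its level was 314 ± 107 in BV, 237 ± 170 in LE and 49.2 ± 7.83 in GE, and over all gilts each step of this order passed the test (S over BV 2.09-fold, adjusted p = 0.000269 in edgeR). MMP14, the membrane-type enzyme that activates pro-MMP2, took the same order with 133 ± 25.7, 64.5 ± 20.0, 39.2 ± 9.70 and 10.7 ± 2.08 CPM per kb. MMP14 in S exceeded MMP14 in BV 2.09-fold (adjusted p = 0.000152). The place of LE depended on the group. MMP2 in LE was 83.2 ± 29.5 CPM per kb in cyclic and 391 ± 62.2 in pregnant gilts (n = 4 each), beside 284 ± 110 and 343 ± 111 in BV. LE minus BV was -1.78 on the log2 scale in cyclic gilts alone (adjusted p = 0.000153) and 0.20 in pregnant gilts alone (adjusted p = 0.447), where LE was not below BV. With either group alone, S over BV did not pass. The LE library levels of MMP2 ran from 43.3 to 457 CPM per kb, a wider range than in GE (35.2 to 56.1).

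Of the other MMP genes, MMP8 reached 72.6 ± 38.1 CPM per kb in cyclic LE and is described with the pregnancy comparison, and the rest were lower. MMP28 (epilysin) was the vascular member, with 19.7 ± 5.86 CPM per kb in BV and 4.32 ± 2.03 in S (4.66-fold, adjusted p = 9.91e-05). MMP15, another membrane-type enzyme, was highest in GE at 7.09 ± 3.35 CPM per kb, 2.15-fold over BV (adjusted p = 0.00719), and this call was lost without any 1 of 5 gilts (42, 39, 41 and those of CG128 and PG139). MMP19, MMP23B and MMP16 were similarly high in S and BV: the S means were 25.3, 13.5 and 4.51 CPM per kb, and S minus BV did not pass the test for any of them. MMP11 varied least between compartments, from 2.01 ± 0.578 in LE to 3.88 ± 1.52 CPM per kb in S.

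Of the ADAMTS genes, ADAMTS1, a versican-cleaving enzyme, had the highest level in each compartment: 229 ± 84.3 CPM per kb in S, 194 ± 76.3 in LE, 126 ± 34.5 in BV and 78.01 ± 34.0 in GE. Of these steps only that from BV to GE passed the test (adjusted p = 0.00877). Its level in the gilt of CL128 and CG128 was 26.8 CPM per kb in LE and 10.8 in GE, the lowest library of both compartments. ADAMTS18 was a glandular gene with 75.8 ± 41.9 CPM per kb in GE, 3.75 ± 2.25 in BV, 1.38 ± 1.95 in S and 1.28 ± 1.92 in LE, 20.3-fold over BV (adjusted p = 2.48e-05). ADAMTS6, which acts on microfibrils, and ADAMTS19 were highest in S: ADAMTS6 had 30.9 ± 13.7 CPM per kb there, 2.06-fold over BV, and ADAMTS19 had 10.9 ± 3.65, 3.54-fold over BV. ADAMTS2 and ADAMTS3, which remove the amino propeptide of procollagens, were highest in BV at 42.1 ± 20.1 and 9.29 ± 1.91 CPM per kb. ADAMTS3 was 2.60-fold higher in BV than in S (adjusted p = 0.00405, lost without gilt 40, 78, 41 or 43), while for ADAMTS2 the step of 1.27-fold did not pass the test. ADAMTS8 was found almost entirely in BV, with 148 counts there against 1 in LE, 1 in GE and 2 in S, and its step from BV to S was no longer called without the gilt of PB139 (adjusted p = 0.0149). Its neighbour ADAMTS15, which lies 14449 bases away on chromosome 9, had 3992 counts and was counted in all 4 compartments.

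Of the inhibitors, TIMP1, TIMP3 and RECK had their highest mean level in BV, and TIMP2 and TIMP4 in GE. None of them passed the test against the next compartment. TIMP2, which inhibits MMPs and also assists MMP14 in activating pro-MMP2, was highest in GE at 496 ± 320 CPM per kb, followed by LE (258 ± 116), S (130 ± 41.5) and BV (124 ± 25.9). GE exceeded S 3.20-fold (adjusted p = 0.000480), but the step from GE to LE did not pass the test (adjusted p = 0.0470). TIMP3, which binds to the matrix and also inhibits ADAM17 and ADAMTS enzymes, had nearly the opposite order: 237 ± 34.6 in BV, 176 ± 53.4 in S, 132 ± 57.1 in LE and only 13.1 ± 5.80 CPM per kb in GE. TIMP3 in LE exceeded TIMP3 in GE 10.2-fold (adjusted p = 1.48e-07). TIMP1 was a gene of BV (112 ± 42.8 CPM per kb) and S (87.9 ± 38.0), with 26.9 ± 14.4 in GE and 14.7 ± 6.71 in LE. RECK ranged only from 9.65 ± 3.26 in LE to 20.0 ± 3.51 CPM per kb in BV, and TIMP4 stayed at or under 2.56 CPM per kb on average in every compartment. TIMP2 made up 71.1 ± 32.8% of the summed inhibitor level in cyclic GE (22.0 to 90.2%) and 93.4 ± 0.753% in pregnant GE. Its share in BV was 22.0 ± 2.52% in cyclic and 28.4 ± 2.35% in pregnant gilts.

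**Figure D2:**
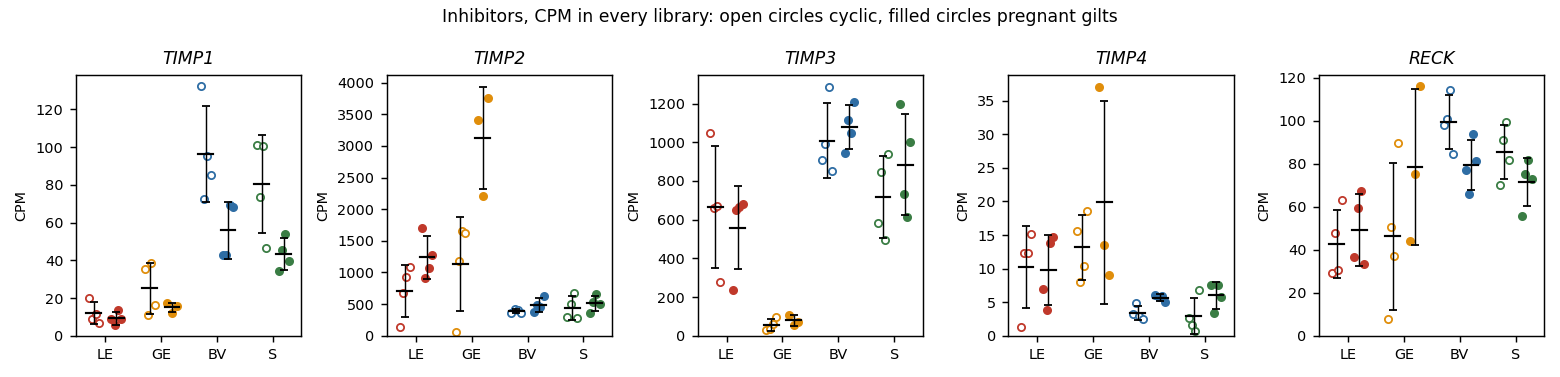
CPM of the 5 inhibitor genes in every library (y axis, CPM after TMM scaling within each compartment) by compartment, open circles cyclic and filled circles pregnant gilts, with the mean and SD as black lines. TIMP2 in GE lies at 2209 to 3757 in the 3 pregnant gilts and at 63.3 to 1654 in the 4 cyclic gilts, and TIMP1 is lower on average in BV and S of pregnant gilts.

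Of the ADAM sheddases, ADAM10, which cleaves Notch and E-cadherin, and ADAM17, which releases TNF and EGF receptor ligands, varied little. ADAM10 ran from 37.4 ± 7.22 in GE to 53.5 ± 8.52 CPM per kb in LE, and ADAM17 from 7.86 ± 1.08 in GE to 10.3 ± 2.15 in LE. ADAM9 was highest in LE (44.6 ± 13.7 CPM per kb) and lowest in GE (10.6 ± 4.78, 4.15-fold, adjusted p = 1.52e-09). ADAM12 was highest in S at 18.8 ± 5.18 CPM per kb, 2.71-fold over BV (adjusted p = 8.10e-05), and 5623 of its exon bases are shared with FANK1 on the opposite strand.

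The 6 genes that passed the filter nowhere were the collagenase MMP1, the stromelysin MMP3, the matrilysin MMP7, the gelatinase MMP9, the membrane-type MMP24 and ADAMTS16. They had between 2 (MMP1) and 47 counts (MMP9) over all 31 libraries. MMP9 was found at 28 counts in BV, 9 in LE, 10 in S and 0 in GE, where 3 counts of a group's total would be 0.178 CPM in cyclic and 0.254 CPM in pregnant gilts. Of the 26 MMP7 counts, 24 were in LE.

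MMP7, MMP8, MMP1 and MMP3 lie together on chromosome 9 (33214590 to 33453995, Sscrofa11.1), all on the minus strand, and MMP8 alone of the 4 passed the filter. The stretch also holds MMP20 (0 counts) and MMP27 (74 counts), and MMP12 (2 counts) and MMP13 (25 counts) follow it. MMP8 had 4341 counts, of which 4168 were in LE, while MMP1, 14100 bases from it, had 2. The 250 bases before the annotated start of MMP8 and of MMP3, from the same stretch, are shown because these genes differed so widely in level, as RefSeq sequence of Sscrofa11.1 read on the minus strand. The windows are chr9:33397638-33397887 for MMP8 and chr9:33453996-33454245 for MMP3, and capitals mark the letters TGAGTCA (the AP-1 motif) or TATAAA (the core of the TATA box) on either strand.
MMP8: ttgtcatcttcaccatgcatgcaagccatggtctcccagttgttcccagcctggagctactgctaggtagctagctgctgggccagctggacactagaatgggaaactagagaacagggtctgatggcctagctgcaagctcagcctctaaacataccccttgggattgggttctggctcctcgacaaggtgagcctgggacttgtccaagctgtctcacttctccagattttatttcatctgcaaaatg
MMP3: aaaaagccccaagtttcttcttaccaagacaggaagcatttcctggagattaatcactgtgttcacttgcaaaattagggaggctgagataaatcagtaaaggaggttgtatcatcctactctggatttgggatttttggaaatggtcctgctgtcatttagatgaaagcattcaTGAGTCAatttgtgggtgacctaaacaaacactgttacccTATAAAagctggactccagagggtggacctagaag
The MMP3 window held TGAGTCA with its first base at -75 and TATAAA at -35. The MMP8 window held neither string. TGAGTCA was found in 3 of the 40 members' windows (MMP3, MMP9 and MMP19) and in 3.05% of the 20640 gene windows scanned, and TATAAA in 6 members' windows (among them MMP3, MMP7, MMP19, MMP28 and ADAMTS8) and in 10.4%. The absence of a string says only that these letters are not in this window.

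Pregnant and cyclic gilts were then compared within each compartment. A gene was called in LE at a false discovery rate of 1% in edgeR's quasi-likelihood test, and elsewhere at an unadjusted p of up to 0.000328, which was the largest among the genes called in LE. In LE 2 of 33 members were called (3.32% of all genes tested there were), MMP2 higher and MMP8 lower in pregnant gilts. In S 1 of 30 was called (0.293% of all genes), ADAMTS9, which was lower. None of 25 was called in GE (0.748%) and none of 31 in BV (1.86%). At an unadjusted p under 0.05 there were 7 members in GE (23.0% of all genes), 5 in BV (28.5%), 5 in LE (26.9%) and 5 in S (14.5%). With edgeR's robust likelihood-ratio fit, which the study used, 4 members were called in LE (11.8% of all genes), 4 in BV (11.0%), 3 in S (3.16%) and 2 in GE (6.66%). DESeq2 called 3 in LE (11.2%), 2 in S (2.60%), 1 in BV (8.50%) and 0 in GE (6.64%). The median log2 fold change of the members was 0.19 in LE, 0.14 in GE, -0.12 in S and -0.03 in BV, with the medians over all genes within 0.01 of 0. These counts are too small to set the members apart from all genes.

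**Figure D3:**
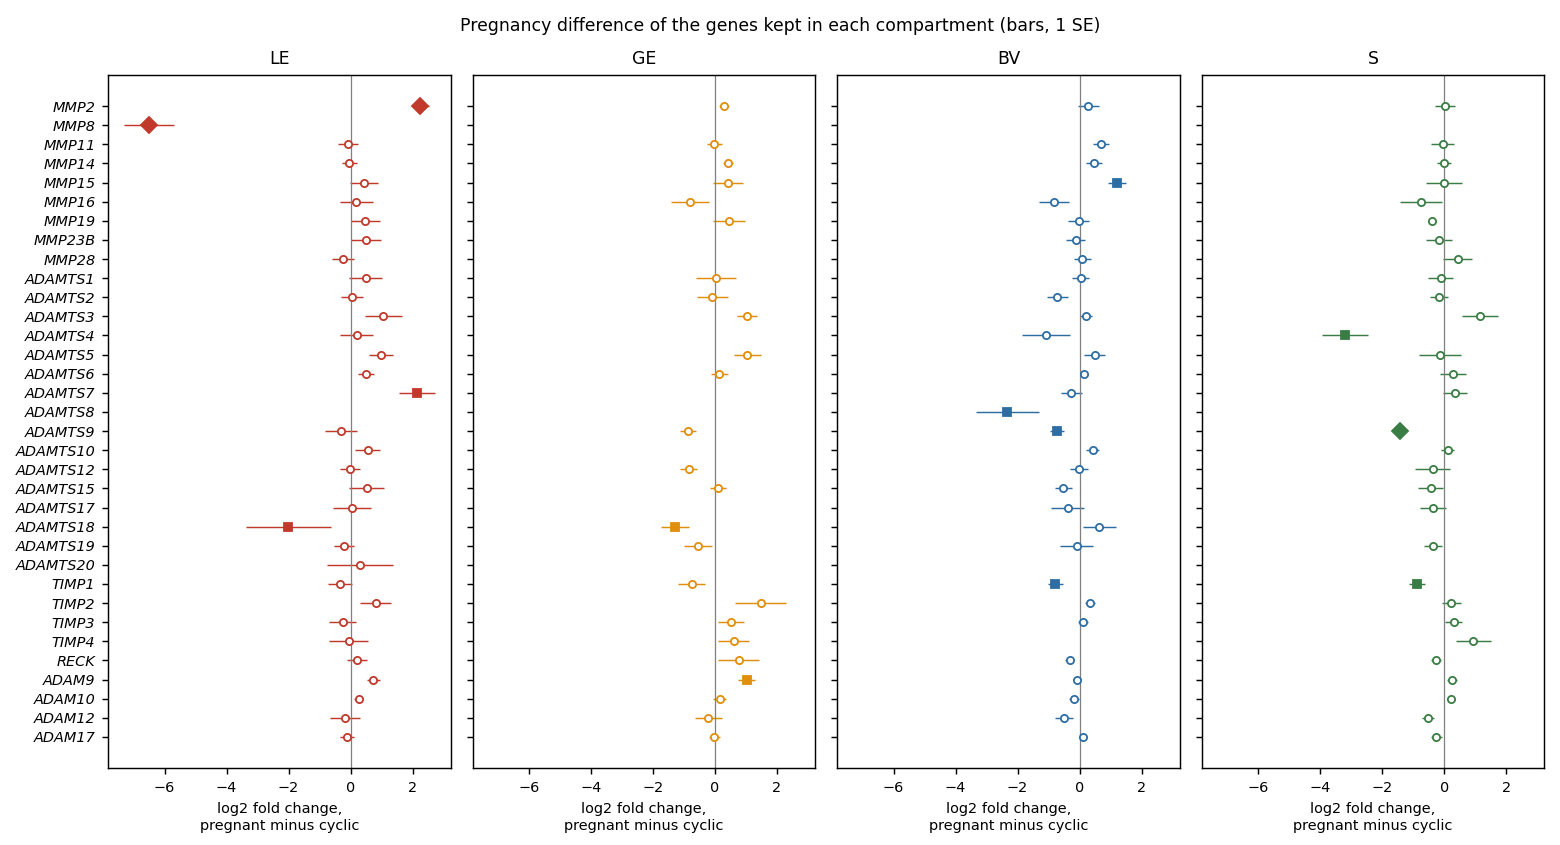
Log2 fold change (pregnant minus cyclic, x axis) of each gene that passed the filter, by compartment, with 1 SE from the quasi-likelihood fit. Diamonds were called by the quasi-likelihood test, squares only by the robust fit or DESeq2, and open circles by none; MMP8 in LE (-6.51) and MMP2 in LE (2.25) are the farthest diamonds on either side.

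MMP8, a collagenase best known from neutrophils, was present in LE of cyclic gilts and nearly absent in LE of pregnant gilts. The cyclic libraries had 123, 155, 377 and 387 CPM, and the pregnant libraries had 0, 1.30, 2.58 and 6.26 CPM. The groups did not overlap, and the lowest cyclic library exceeded the highest pregnant one many times over. MMP8 had a log2 fold change of -6.51 (SE 0.81, adjusted p = 0.00251 in edgeR), 90.8-fold lower. Leaving out pregnant gilt 39 or 43 ended the call (adjusted p up to 0.0126). MMP8 was also found at 0.360 to 14.7 CPM in cyclic S and at 10.3 CPM in GE of cyclic gilt 78. That gilt had the highest MMP8 of the cyclic gilts in LE, GE and S. Its S library held 144 CPM of the epithelial markers, beside 160 in CS128, 13.2 in gilt 40 and 10.1 in gilt 42. The S libraries of gilt 78 and CS128, with the higher epithelial sums, also had more MMP8 than those of gilts 40 and 42. The part of epithelial cells in the MMP8 of S was not tested. Of 6 neutrophil markers in LE, S100A12 and S100A8 were higher in pregnant gilts, while CSF3R had 1.30 to 5.99 CPM in cyclic and 0.322 to 4.98 CPM in pregnant libraries and CXCR2 stayed under 1 CPM. The 6 markers summed to 1.52 to 6.47 CPM in cyclic and 20.2 to 66.4 CPM in pregnant gilts. MPO was at 0 in all LE libraries, ELANE had 0.217 CPM in 1 cyclic library, and the pregnant sum came mainly from S100A12 (12.9 to 52.9 CPM). The part of neutrophils in the MMP8 difference was not tested.

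**Figure D4:**
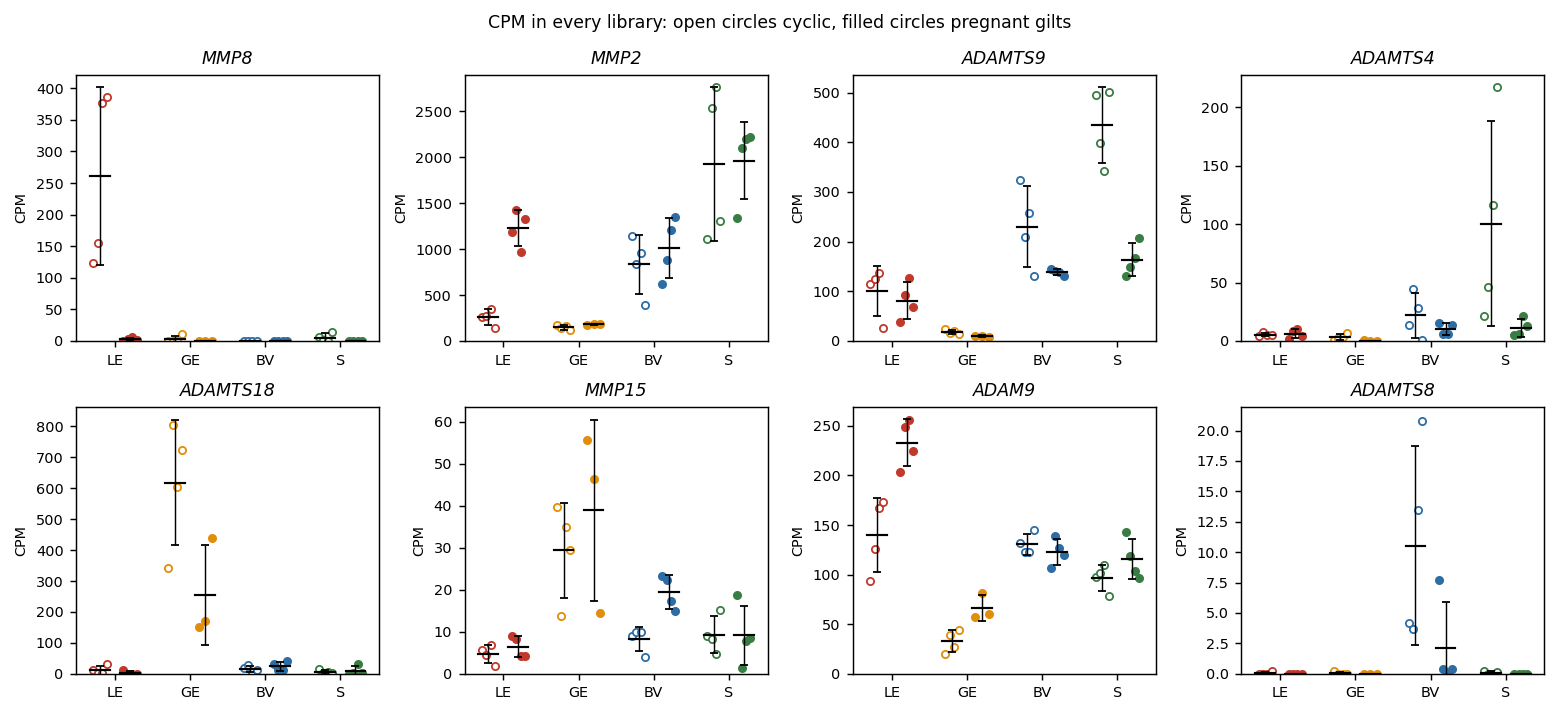
CPM of 8 genes in every library (y axis, CPM after TMM scaling within each compartment), open circles cyclic and filled circles pregnant gilts, with the mean and SD as black lines. MMP8 in LE, MMP2 in LE, ADAMTS9 in S, ADAMTS4 in S, MMP15 in BV and ADAM9 in LE and GE show groups that do not overlap, while ADAMTS18 in GE and ADAMTS8 in BV overlap.

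MMP2 rose in LE of pregnant gilts. The cyclic LE libraries had 140, 263, 272 and 353 CPM and the pregnant ones 971, 1184, 1326 and 1424 CPM. All pregnant libraries lay well above all cyclic ones. The log2 fold change was 2.25 (SE 0.28, adjusted p = 0.00255), 4.77-fold, and the adjusted p was between 0.00173 and 0.0125 with any 1 library left out. It exceeded 0.01, and the call was lost, without cyclic gilt 40 or pregnant gilt 39 or 43. In BV and S the MMP2 values of both groups overlapped, and in GE the highest cyclic library had 174.9 CPM beside 178.5 CPM in the lowest pregnant one. Its log2 fold change was 0.03 in S and 0.28 in both GE and BV. The difference between the 4 compartments in the pregnancy effect was itself tested, and MMP2 was the only 1 of 23 members that passed (adjusted p = 0.000698, false discovery rate 1%, 3.05% of 9727 genes). The test took only genes kept in all 4 compartments, so MMP8, ADAMTS4, ADAMTS7, ADAMTS8 and ADAMTS18 were not part of it. The adjusted p of ADAM9 in that test was 0.0309.

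As MMP2 is a gene of stroma, its LE level was set against that in S of the same gilt, beside the 6 fibroblast markers. MMP2 in LE was 14.2 ± 6.40% of its S level in cyclic gilts and 62.6 ± 15.8% in pregnant gilts (SD, n = 4 each). The summed fibroblast markers in LE were 13.7 ± 3.69% of S in cyclic and 19.0 ± 4.17% in pregnant gilts. Each of the 6 fibroblast markers had a positive log2 fold change in LE, with a median of 0.34, and none was called. The 5 endothelial and 3 leukocyte markers tested in LE were also all higher (medians 0.80 and 0.29), and none was called. Of 6 epithelial markers 2 were higher and 1 was called lower (median -0.81), and of 4 smooth muscle markers 1 was higher (median -0.78). The part of cell content in the MMP2 difference was not tested. MMP14, with a level pattern close to that of MMP2 over compartments, had 164 ± 39.6 CPM in cyclic libraries and 159 ± 43.2 CPM in pregnant LE. MMP2 accounted for 40.1 ± 12.5% of the summed MMP level per kb in cyclic LE and for 87.3 ± 3.13% in pregnant LE.

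**Figure D5:**
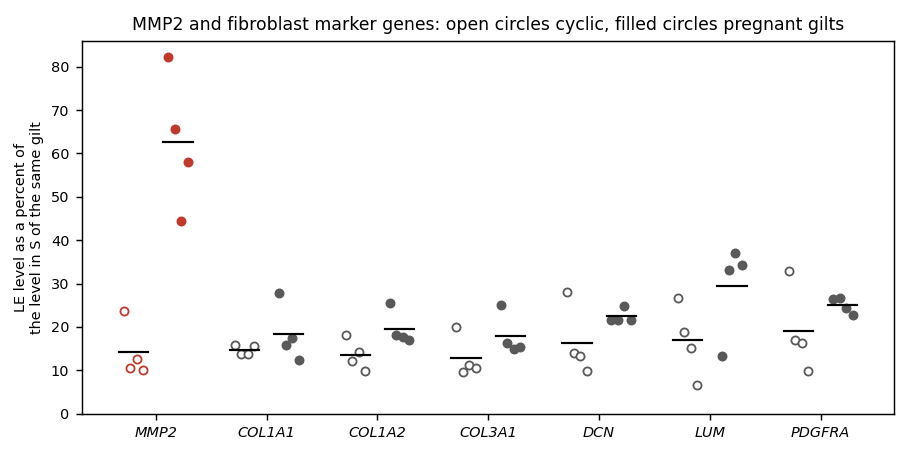
Level in LE as a percent of the level in S of the same gilt (y axis) for MMP2 and 6 fibroblast marker genes, open circles cyclic and filled circles pregnant gilts, with black lines at the mean. MMP2 moves from 10.01 to 23.7% in cyclic gilts to 44.3 to 82.2% in pregnant gilts, while the marker genes reach at most 37.0%.

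Of the remaining genes in LE, ADAMTS7, which cleaves cartilage oligomeric matrix protein, had 0.719, 1.43, 3.69 and 6.60 CPM in cyclic and 8.96, 12.2, 14.6 and 20.3 CPM in pregnant gilts. The groups did not overlap. Its log2 fold change of 2.15 (SE 0.57, adjusted p = 0.0443) was called by the robust fit and DESeq2 only. Of its exon bases, 23.6% are shared with TBC1D2B on the opposite strand, whose own log2 fold change in LE was 1.15 (SE 0.25, adjusted p = 0.0195). Without strand in the counting, which is not given in the sources used here, reads of both genes cannot be told apart there. ADAM9 had 93.4, 126, 167 and 173 CPM in cyclic libraries and 203, 224, 249 and 255 CPM in pregnant LE, also without overlap (log2 fold change 0.73, adjusted p = 0.0569). ADAMTS5, a main aggrecan-cleaving enzyme, had 19.4 to 48.7 CPM in cyclic libraries and 31.9 to 84.3 CPM in pregnant LE, and these ranges overlapped (log2 fold change 0.99, adjusted p = 0.134). ADAMTS18 had 0.858, 1.74, 12.7 and 32.4 CPM in cyclic libraries and 0, 0.285, 0.325 and 11.3 CPM in pregnant LE. Its log2 fold change of -2.01 (SE 1.38) was called by the robust fit alone (-4.14), and became -5.56 without pregnant PL139 and -0.78 without cyclic gilt 78.

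In S, ADAMTS9 fell in pregnant gilts. ADAMTS9, a versican- and aggrecan-cleaving enzyme, had 343, 399, 495 and 501 CPM in cyclic libraries and 130, 149, 167 and 207 CPM in pregnant S, without overlap. In the fit the log2 fold change was -1.41 (SE 0.19, unadjusted p = 3.14e-05, adjusted p = 0.0751), and it was called with each library left out, by the robust fit and by DESeq2. At a false discovery rate of 5% in S it was not called. Smooth muscle markers in S summed to 471 to 1179 CPM in cyclic and 418 to 558 CPM in pregnant gilts, with 5 of 6 lower, a median log2 fold change of -1.06 and 1 called. All 6 epithelial and all 6 endothelial markers had positive log2 fold changes in S (medians 0.92 and 0.51), and none was called. The part of these markers in the S differences was not tested. ADAMTS9 was also lower on average in the other compartments. In GE it had 13.5, 16.2, 19.5 and 24.1 CPM in cyclic and 8.75, 10.2 and 10.9 CPM in pregnant gilts (log2 fold change -0.88, adjusted p = 0.0999), without overlap. In BV it had 131, 208, 258 and 324 CPM in cyclic and 130, 139.5, 141 and 145 CPM in pregnant gilts (log2 fold change -0.73, adjusted p = 0.0838). That difference was called by the robust fit, and by the quasi-likelihood test only without cyclic gilt 78, whose value lay within the pregnant range. In LE the log2 fold change was -0.30 (SE 0.51). The test of a difference in the effect between compartments gave an adjusted p of 0.287 for ADAMTS9. LOC102162007, which shares 147 exon bases with ADAMTS9 on the opposite strand, was called lower in BV (log2 fold change -1.21) and had a log2 fold change of -0.50 (SE 0.53) in S. A further overlapping gene, LOC110256460 (86 shared exon bases), had log2 fold changes of 1.03 in BV and 0.89 in S and was not called.

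ADAMTS4, another aggrecan-cleaving enzyme, had 21.3, 46.5, 116 and 217 CPM in cyclic libraries and 4.79, 5.94, 12.5 and 21.0 CPM in pregnant S. The ranges nearly touched, and the cyclic values ranged widely. ADAMTS4 had a log2 fold change of -3.19 (SE 0.74, adjusted p = 0.118), called by the robust fit and DESeq2 only. TIMP1 had 46.6, 73.4, 101 and 101 CPM in cyclic libraries and 34.2, 39.4, 45.7 and 54.1 CPM in pregnant S, and only the cyclic gilt 78 lay within the pregnant range. Its log2 fold change was -0.89 (SE 0.26, adjusted p = 0.181), called by the robust fit alone. MMP19 had 60.9 to 73.5 CPM in cyclic libraries and 44.8 to 58.4 CPM in pregnant S (log2 fold change -0.40, adjusted p = 0.250), without overlap. ADAM12 had 179 to 321 CPM in cyclic libraries and 159 to 217 CPM in pregnant S (log2 fold change -0.53, adjusted p = 0.259), with overlap.

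In BV no member was called by the quasi-likelihood test. MMP15 had 4.08, 8.96, 9.90 and 9.99 CPM in cyclic and 14.9, 17.2, 22.4 and 23.2 CPM in pregnant gilts, without overlap. Its log2 fold change of 1.22 (SE 0.29, adjusted p = 0.0367) was called by the robust fit and DESeq2. Epithelial markers moved with it: the 6 genes summed to 2.43 to 42.7 CPM in cyclic libraries and 142 to 261 CPM in pregnant BV, and MMP15 was highest in GE among the compartments. Their part in the MMP15 difference was not tested. TIMP1 had 72.7, 85.2, 95.6 and 132 CPM in cyclic libraries and 42.8, 43.1, 68.3 and 69.6 CPM in pregnant BV, without overlap, and was called by the robust fit alone (log2 fold change -0.78, SE 0.24, adjusted p = 0.0680). The stromelysin MMP11 had 11.9 to 28.9 CPM in cyclic libraries and 26.3 to 36.3 CPM in pregnant BV (log2 fold change 0.69, adjusted p = 0.112), with overlap.

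ADAMTS8, the gene restricted to BV, had 3.68, 4.16, 13.5 and 20.8 CPM in cyclic and 0, 0.356, 0.362 and 7.74 CPM in pregnant gilts. The pregnant library PB139 lay inside the cyclic range and the other 3 pregnant gilts below it. The log2 fold change was -2.34 (SE 1.02, adjusted p = 0.167), called by the robust fit alone (-4.31), and -5.20 without that library. Smooth muscle markers summed to 5670 to 17393 CPM in cyclic BV, to 6617 CPM in PB139 and to 1027, 1282 and 2395 CPM in the other 3 pregnant gilts. Cyclic gilt 78 had the highest ADAMTS8 and the highest smooth muscle sum. The part of smooth muscle content in the ADAMTS8 values was not tested.

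In GE no member was called by the quasi-likelihood test. ADAM9 had 20.4, 26.8, 39.1 and 44.5 CPM in cyclic and 57.4, 60.0 and 81.5 CPM in pregnant gilts, without overlap, and its log2 fold change of 1.02 (SE 0.28, adjusted p = 0.0947) was called by the robust fit. The groups of ADAM9 did not overlap in either epithelium, with log2 fold changes of -0.09 in BV and 0.26 in S. ADAMTS18, the glandular member, had 341, 604, 724 and 804 CPM in cyclic and 152, 172 and 440 CPM in pregnant gilts, so that 1 pregnant and 1 cyclic gilt overlapped. Its log2 fold change of -1.28 (SE 0.45, adjusted p = 0.146) was called by the robust fit alone. ADAMTS3 had 3.32 to 6.29 CPM in cyclic libraries and 7.84 to 10.9 CPM in pregnant GE (log2 fold change 1.04, adjusted p = 0.110), and MMP14 had 34.6 to 45.1 and 47.0 to 59.7 CPM (log2 fold change 0.40, adjusted p = 0.191), both without overlap. ADAMTS12, related to ADAMTS7, had 31.5 to 70.2 CPM in cyclic libraries and 26.05 to 33.7 CPM in pregnant GE (log2 fold change -0.86, adjusted p = 0.127), and ADAMTS5 had 17.9 to 59.1 and 42.01 to 116 CPM (log2 fold change 1.03, adjusted p = 0.208).

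TIMP2 in GE is given because its values were seen to stand apart. It had 63.3, 1186, 1621 and 1654 CPM in cyclic and 2209, 3405 and 3757 CPM in pregnant gilts, without overlap, and library CG128 was far below the other cyclic gilts. With all libraries the log2 fold change was 1.47 (SE 0.83, adjusted p = 0.328), and without CG128 it was 1.07 (SE 0.26, adjusted p = 0.0736), which was not called either. In LE the TIMP2 log2 fold change was 0.81 (SE 0.51), with CL128 the lowest library at 145 CPM. Including TIMP2, the 96 member and compartment pairs called by no fit and with an unadjusted p of 0.05 or more had log2 fold changes from -0.81 to 1.47 in GE, from -0.34 to 1.06 in LE, from -0.74 to 1.17 in S and from -1.09 to 0.64 in BV. TIMP3, the most abundant inhibitor of BV, had log2 fold changes of 0.51 (SE 0.42) in GE, 0.31 (SE 0.27) in S, 0.10 (SE 0.17) in BV and -0.25 (SE 0.43) in LE. ADAM17 lay between -0.26 and 0.12 in all 4 compartments.

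Genes around these enzymes were read from lists in the same fits. Of 20 other genes of metalloproteinase families, 11 were tested in LE, 10 in S and 8 in both GE and BV. There were 3 calls, 1 in LE (3.32% of all genes) and 2 in BV (1.86%). The procollagen C-proteinase family gene TLL2 was lower in pregnant LE, with 101 ± 57.8 CPM in cyclic and 11.8 ± 3.08 CPM in pregnant gilts (log2 fold change -3.09, adjusted p = 0.00673). ADAM22 was higher in pregnant BV (log2 fold change 2.31), as was the meprin gene MEP1B (5.11). MEP1B had 181 ± 161 CPM in pregnant BV and is given beside the epithelial markers that also moved in BV. Of 14 partners and substrates of ADAM10 and ADAM17, the cytokine receptor IL6R was higher in pregnant LE (log2 fold change 3.38), and CDH1, itself an epithelial marker, was higher in pregnant BV (3.77). None of these shedding partners was called in GE or S. An unadjusted p under 0.05 was found for 3 of 11 in GE (23.0% of all genes) and 3 of 9 in S (14.5%). The robust fit called 2 in GE (6.66% of all genes) and 1 in S (3.16%).

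Among the genes of the plasminogen system and the proprotein convertases, which activate MMP proenzymes, FURIN was higher in pregnant BV. FURIN had 35.7 ± 1.29 CPM in cyclic libraries and 83.8 ± 14.2 CPM in pregnant BV (log2 fold change 1.23, SE 0.15, adjusted p = 0.0130), and its log2 fold change in LE was 1.06 (adjusted p = 0.0255). FURIN was the only 1 of 15 list genes called, and 11 of them were tested in BV (1.86% of all genes were called there). The part of the epithelial markers that moved in BV in the FURIN difference was not tested. At an unadjusted p under 0.05 there were 7 of 11 tested in BV (28.5% of all genes), 6 of 12 in S (14.5%), 4 of 8 in GE (23.0%) and 3 of 10 in LE (26.9%). Among 18 known inducers of MMP transcription, the AP-1 gene FOSL2 was higher in pregnant LE (log2 fold change 2.29, SE 0.38, adjusted p = 0.00673), with 204 ± 104 CPM in cyclic and 1001 ± 223 CPM in pregnant gilts. Of 13 inducers tested in LE, the robust fit called 3 higher and 2 lower (11.8% of all genes were called). The lower ones were FOS, another AP-1 gene (log2 fold change -1.54, adjusted p = 0.158 in the quasi-likelihood test), and IL1A (-1.80, adjusted p = 0.229). In GE the robust fit called 3 of 13 higher (6.66% of all genes) and 0 lower. IL1A and FOSL2 were among them (log2 fold changes 3.88 and 1.51, adjusted p = 0.0704 and 0.0936 in the quasi-likelihood test). That fit also called FOSL2 higher in S (0.83, 1 of 13, 3.16%), and 1 of 13 inducers lower in BV (11.0%). None of the 24 matrix substrates was called in any compartment by the quasi-likelihood test. At an unadjusted p under 0.05 there were 8 of 23 in GE (23.0% of all genes), 6 of 24 in BV (28.5%), 3 of 22 in S (14.5%) and 2 of 22 in LE (26.9%). In GE the robust fit called 6 of 23 matrix substrates (6.66% of all genes), all higher in pregnant gilts, and DESeq2 called 7 (6.64%). NID1 and COL4A1, both of the basement membrane, had the lowest p in GE, with log2 fold changes of 0.88 (adjusted p = 0.0436) and 1.12 (adjusted p = 0.0451). Leukocyte markers in GE summed to 27.5 to 32.1 CPM in cyclic and 78.4 to 137 CPM in pregnant gilts, without overlap, and endothelial markers to 16.8 to 46.4 and 19.3 to 184 CPM. Their part in the GE differences was not tested. In BV the robust fit called 2 of 24 matrix substrates lower (11.0% of all genes were called), TNC and ACAN, and DESeq2 called 2 lower (8.50%). The direction of ACAN turned with the fit, with a log2 fold change of 0.56 (SE 1.36) in the quasi-likelihood fit. In S the robust fit called 1 of 22 higher (3.16%). None of 15 ADAMTS-like proteins, other inhibitors and clearance receptors was called. The fits covered 11 of them in LE, 12 in both BV and S, and 9 in GE. An unadjusted p under 0.05 was reached by 6 in LE (26.9% of all genes). Each other compartment had 2, where the share of all genes was 28.5% for BV, 23.0% for GE and 14.5% for S. The robust fit called 2 in LE (11.8% of all genes) and 1 in GE (6.66%), as did DESeq2 (11.2% and 6.64%). The clearance receptor LRP1 had a log2 fold change of 0.83 in GE (adjusted p = 0.0493).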

How the data were processed

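The authors made the counts from single-read sequencing of Ovation SoLo libraries: adapter trimming with removal of 5 bases at the 5′ end, Hisat2 alignment to Sscrofa 11.1, removal of PCR duplicates, and QuasR counting per NCBI gene (strand setting not given in the sources used here). The deposited tables hold raw counts of 30185 genes and, per compartment, the genes left by the authors' filter on CPM, whose value is not given in the sources used here (12002 in LE, 11935 in S, 11905 in GE and 11096 in BV). RN18S and RN5-8S took part in library sizes unless left out as an alternative.

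From these counts, pregnant and cyclic gilts were compared within each compartment on the filtered genes with TMM scaling and edgeR 4.0.16 (quasi-likelihood), in R 4.3.3, with the Benjamini-Hochberg adjustment over all genes tested; edgeR's robust likelihood-ratio fit, which is the study's own method, and DESeq2 1.42.0 were alternatives. Compartments were compared in a joint edgeR fit with the gilt as a block, since the same animal gave all 4 compartments while different gilts made up the cyclic and pregnant groups, on 13887 genes (levels, averaged over pregnant and cyclic gilts) or the 9727 genes kept in all 4 compartments (difference in pregnancy effect). The scripts were tested on simulated data. CPM values use TMM factors within a compartment, CPM per kb those over all 31 libraries with exon lengths of the Sscrofa11.1 annotation, and promoter windows come from the same build. Each group had 4 libraries (3 for pregnant GE) of 2415216 to 7081556 counts; 3 counts in 1 library amount to 0.424 to 1.24 CPM, for counting error only. The members and lists were chosen with earlier results of these data known. Per-library values were given for members called by any of the 3 fits or with an unadjusted p under 0.05. COL6A1, MMP10 and MMP21 of the lists matched no counted gene. Some results on the listed genes and promoter windows are not reported here.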

Additional observations from a re-analysis of the deposited data

Results flagged for a closer look

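The pregnancy effect on MMP2 differed between the compartments in the joint fit (edgeR, adjusted p = 0.000698), with a log2 fold change of 2.25 in LE and between 0.03 and 0.28 in GE, BV and S. The adjusted p was between 0.000551 and 0.00914 with any 1 gilt left out.

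In 2 of the 39 groups of 4 libraries behind the values described, the library of the pregnant gilt of PL139 and PB139 stood far from the other 3. ADAMTS18 in LE was at 11.3 CPM in that gilt and at most at 0.325 CPM in the others, and ADAMTS8 in BV was at 7.74 CPM against at most 0.362 CPM. The gap to the nearest library was 0.971 and 0.953 of the group's range. Both were picked because their gaps lay beyond the limit used (Dixon's 95% critical value). By chance about 5% of groups of 4 pass that limit, so 2 of 39 is near the number that chance alone gives.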

How the results depend on the processing

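Among the 23 member and compartment pairs described one by one, neither the robust fit nor DESeq2 turned a direction, while the robust fit turned 6 of the 96 others, all with a log2 fold change of at most 0.13 in size. The robust fit called 4 members in LE, 4 in BV, 3 in S and 2 in GE, and DESeq2 1 in BV and 2 in S, beside 2 in LE, 1 in S and 0 in BV and GE with the quasi-likelihood test. At a false discovery rate of 5% in each compartment, 1 member was called in BV and 0 in S, and in LE ADAMTS7 (adjusted p = 0.0443 in edgeR) passed beside MMP2 and MMP8. Leaving out 1 library gave 0 to 2 calls in LE, 0 to 1 in BV, 0 in GE and 1 in S. RLE scaling, other filters on low counts, an unadjusted p limit of 0.0012 and leaving out the ribosomal RNA genes left the counts of members called within 1.5 times. For the levels, restricting to the genes kept in all 4 compartments tested 23 members and called 13 between LE and GE and 18 between GE and BV, beside 21 and 29. With cyclic gilts only, 13 members differed between LE and GE and 3 between BV and S, and with pregnant gilts only 1 differed between BV and S, beside 21 and 8, with fewer samples, and several named level differences lost their call there without turning, among them MMP2 in S over BV (log2 difference 1.21 and 0.94). Without the gilt as a replicate block, the paired levels gave 19, 21, 22, 26, 28 and 8 members for LE to GE, LE to BV, LE to S, GE to BV, GE to S and BV to S. The adjusted p of the MMP2 difference in pregnancy effect was then 0.00589, and the block changed no call of a highest compartment. Apart from the 3 fits, the share of all genes called under each changed setting is not given here. Fewer members called under such a setting therefore cannot be told from fewer calls over all genes. Groups of 3 or 4 gilts and low counts limit what a missing call can say for genes such as ADAMTS8, ADAMTS20 and TIMP4.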
